A study of Catharanthus roseus with 35 samples.

Results

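The transcripts described here are 150 of the 35722 Catharanthus roseus (Madagascar periwinkle) genes counted, chosen because they were abundant in whole leaves and scarce in protoplasts, the leaf cells left after enzymes have removed their walls. Counts were expressed as CPM (each gene's count over the sample's total, rescaled to the same large total in every sample). The leaf reference of a gene was the lowest of its mean CPM in the 5 Illumina leaf groups, and it had to reach 20 CPM, with the means of leaf pairs 1 and 4 within 4-fold of each other. Of the 6665 genes that passed this filter, the 150 with the largest log2 ratio of reference to total protoplast mean, with 1 CPM added to both, were taken, after 3 IDs had been left out. The genes were thus chosen by their measured CPM in the Illumina leaves and the total protoplasts, and that difference is given below as a description with no test.

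Leaves of the cultivar Little Bright Eye were sampled in a pair of experiments. In the first, on growth-chamber plants and with cells sorted by fluorescence (FACS), 3 replicates each of unsorted total protoplasts, sorted mesophyll protoplasts (common photosynthetic cells) and sorted idioblast protoplasts (scattered alkaloid-storing cells) were sequenced with 2 whole-leaf samples (FACS leaves). All 4 groups of that experiment were made into Smart-seq2 libraries and came from untreated leaves pooled over several plants. In the second experiment, leaf pairs 1 to 4, numbered from the shoot apex, were collected from flowering plants that had stayed indoors or had been moved into outdoor sun for months, with 3 samples per leaf pair and condition. Leaf pairs 1 and 4 were sequenced on Illumina from TruSeq libraries, and pairs 2 and 3 as Nanopore long reads. The central vein had been removed from the leaves. The genes are gene models of the study's own transcriptome on the C. roseus genome v2, named by CATHA numbers, and no genome positions are given for them here.

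Protoplasts are released by digesting cut leaves with cellulases and pectinases, and only the cells that come free and stay whole are collected. Leaf tissues differ in how readily they release cells, and detached cells also alter their transcript pool during the digestion. In C. roseus leaves, the monoterpenoid indole alkaloid (MIA) pathway is divided among cell types: the early iridoid steps run in internal phloem-associated parenchyma (IPAP), the middle steps in the epidermis, and the last steps towards vindoline in idioblasts and laticifers.

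For 11 of the 150 genes a description was found in the study. Of these, 3 belong to the MIA pathway or its transport. IS (CATHA_28216) is the iridoid synthase that closes the iridoid ring, and T3R (CATHA_22634) is a tabersonine reductase of the vindoline branch. CrTPT2 (CATHA_35301) is an ABC transporter thought to export catharanthine to the leaf surface. The other described genes encode a proline-rich protein 4-like cell wall protein (CATHA_12004), a non-specific lipid-transfer protein (CATHA_14586), a beta-amyrin 28-oxidase (CATHA_16918, a cytochrome P450 type that makes triterpenoid acids) and a subtilisin-like protease SBT1.6 (CATHA_11964). They further include an abscisic stress-ripening protein 2 (CATHA_18760, of a family of small proteins that respond to abscisic acid and drying), a C2C2 zinc-finger transcription factor (CATHA_23273), a lysosomal Pro-X carboxypeptidase (CATHA_23144) and an ABCB transporter (CATHA_34488). The other 139 genes, 2 of them listed only as hypothetical proteins, are given by ID with no role.

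Total counts were 10263533 to 17625811 per Illumina sample and 85976 to 732961 per Nanopore sample, so that single low values are far less precise in leaf pairs 2 and 3. The 2 FACS leaf samples stood apart from each other: 87 of the 150 genes (58.0%) differed at least 2-fold between them, against 26.5% of all genes that passed the filter. Of the 150 genes, 20 differed at least 10-fold and 106 were higher in replicate 1. Idioblast samples held the idioblast markers, with D4H and DAT (the last enzymes of vindoline synthesis) summing to 1111 to 2542 CPM, against 38.5 to 104 CPM in mesophyll. No 2 replicates of a group were alike within sampling noise.

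The 150 transcripts made up several percent of all counts in every leaf library and far less in every protoplast library. Their summed share was 4.58% and 6.37% of the counts in the FACS leaves and 4.88% to 7.45% (median 5.77%) in leaf pairs 1 and 4. The 12 Nanopore samples took no part in the choice, but their plants were those of leaf pairs 1 and 4. In them the share was 3.74% to 6.69% (median 5.78%). In the 9 protoplast samples it was 0.0854% to 0.226% (median 0.104%), with 0.101% to 0.138% in total protoplasts, 0.0945% to 0.226% in mesophyll and 0.0854% to 0.104% in idioblasts. The FACS leaves and the protoplasts were made with the same library kit, while the RNA of leaves and protoplasts was extracted with different kits. In such bulk samples, fewer cells of a type and less RNA of a gene per cell cannot be told apart.

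**Figure D1:**
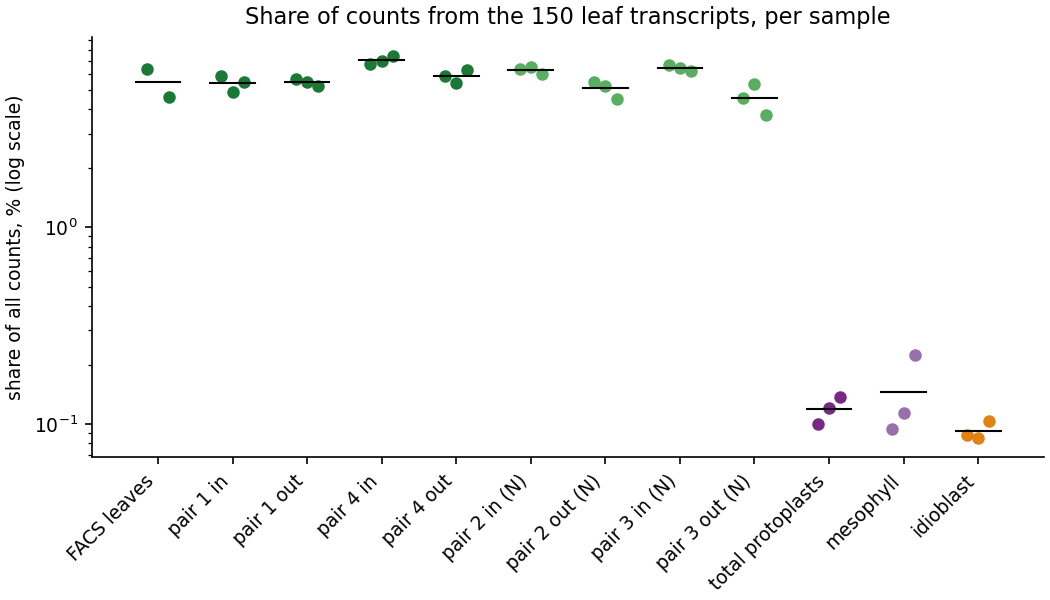
Share of all counts (%, log axis) that came from the 150 transcripts, with 1 point per sample and a line at each group mean; N marks Nanopore leaves, and in and out stand for indoors and outdoors. Every leaf sample lies between 3.74% and 7.45%, and every protoplast sample between 0.0854% and 0.226%.

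Levels in the leaf spanned 2 orders of magnitude. The leaf reference ran from 20.1 to 3299 CPM with a median of 73.8 CPM, and it was at least 1000 CPM for 10 genes and under 100 CPM for 90. Total protoplast means ran from 0 to 128 CPM with a median of 2.00 CPM, with 38 genes under 1 CPM and 3 over 100 CPM. The log2 ratio that ranked the genes was 7.99 at the top, had a median of 4.53 and ended at 4.00, where the median over all 6665 genes was 0.44. The last genes inside were CATHA_26070 (4.02, with 83.1 CPM in the reference and 4.20 CPM in total protoplasts) and CATHA_11479 (4.00, with 71.1 and 3.49 CPM). The first outside were CATHA_9524 (105 and 5.62 CPM) and CATHA_25797 (104 and 5.53 CPM), both at 4.00. For 147 of the 150 genes every Illumina leaf sample lay above every protoplast sample, where 47.8% of all genes that passed had every leaf sample above every total protoplast sample and 43.4% above every sorted one. The exceptions were CATHA_3555, CATHA_38314 and CATHA_5385, which had 1.46, 6.92 and 1.66 CPM in FACS leaf replicate 2 and 5.50, 18.6 and 9.64 CPM in idioblast replicate 1.

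**Figure D2:**
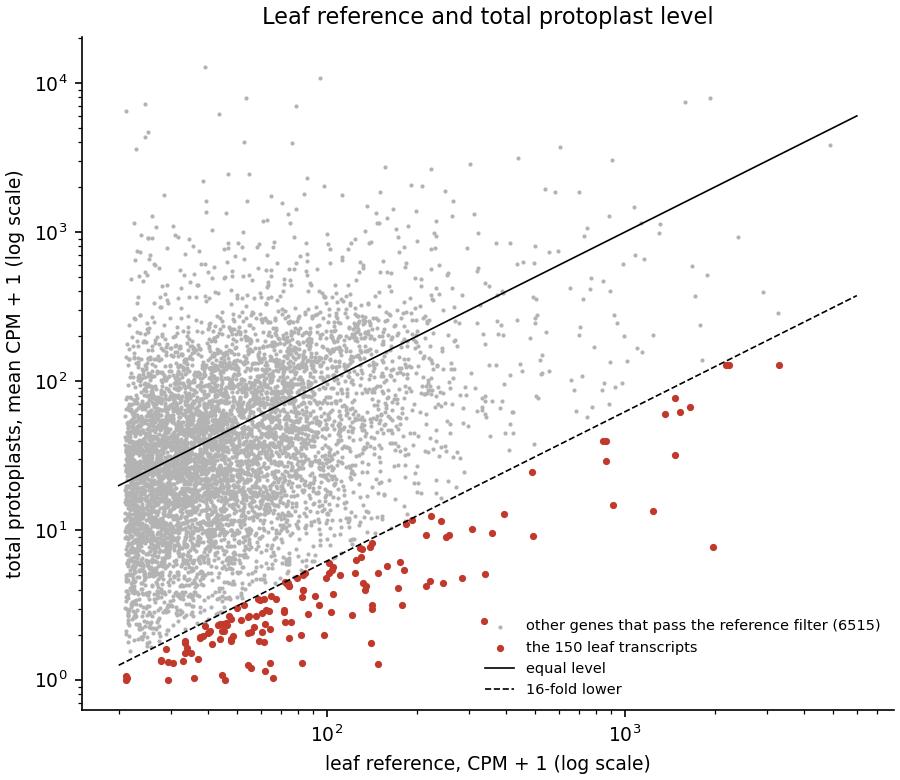
Leaf reference (x axis) and mean total protoplast level (y axis) of the 6665 genes that passed the filter, both as CPM + 1 on log axes; red points are the 150 transcripts, the solid line marks equal levels and the dashed line a 16-fold lower level in protoplasts. The 150 lie along the lower edge from 20.1 to 3299 CPM in leaves, which is how they were chosen.

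Scaling moved the ratios. With libraries scaled by TMM (a factor that sets most genes equal between samples), the median log2 ratio over all 6665 genes shifted by -0.64, to -0.20, and that of the 150 genes by -0.51, to 4.02. The lowest of the 150 was then at 3.29.

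CATHA_29585 had the largest ratio. It had 1498 to 2258 CPM in the 3 indoor samples of leaf pair 1, 3562 to 5371 CPM outdoors, 5282 to 9430 CPM in pair 4 indoors and 7026 to 11461 CPM outdoors. The FACS leaves had 7731 CPM in replicate 1 and 139 CPM in replicate 2. Total protoplasts had 10.5, 4.72 and 5.07 CPM, mesophyll 5.45, 5.13 and 6.54 CPM and idioblasts 8.28, 4.42 and 5.15 CPM, so the 3 protoplast groups overlapped and every leaf sample was above them.

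The next largest ratios belonged to CATHA_9305 (log2 ratio of 7.07), CATHA_32635 (6.86), CATHA_27187 (6.53), CATHA_16430 (6.32), CATHA_12004 (6.06), CATHA_26032, CATHA_8055 (5.99), CATHA_2950 (5.95) and CATHA_2657 (5.87). Their references ranged from 64.7 CPM for CATHA_26032 to 1244 CPM for CATHA_27187. CATHA_32635 had 147 CPM or more in every leaf group mean, 0.335, 0.504 and 0 CPM in total protoplasts and no count in any mesophyll or idioblast sample. With 3 counts in the whole group taken as the floor (0.0859 CPM in mesophyll, 0.0668 CPM in idioblasts), its reference was at least 1716-fold and at least 2205-fold higher. These floors, like every limit from a count of 0, cover counting error only. Among all 150 genes, 3 had no count in total protoplasts, 6 none in mesophyll and 5 none in idioblasts, and 27 had a mean under 1 CPM in all 3 protoplast groups.

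The most abundant of the 150 in leaves were CATHA_13249 (reference of 3299 CPM), CATHA_37418 (2226 CPM), CATHA_38275 (2180 CPM), CATHA_29585 (1973 CPM) and CATHA_22517 (1646 CPM). CATHA_13249 had 2756 to 6816 CPM in the leaf samples of pairs 1 and 4, 3124 and 5566 CPM in the FACS leaves, and 101, 111 and 172 CPM in total protoplasts. The 10 genes with at least 1000 CPM gave 35.6% and 61.7% of the 150 genes' counts in the FACS leaves, 61.9% to 74.2% in mesophyll and 38.9% to 49.6% in idioblasts. The mesophyll samples lay above both FACS leaf samples in this share, the lowest of them barely (61.9% against 61.7%), and the idioblast samples between them. Mesophyll overlapped total protoplasts (53.2% to 62.5%) and the indoor Nanopore leaves (58.8% to 64.2%). It did not overlap the outdoor Nanopore leaves (51.2% to 58.5%) or leaf pairs 1 and 4 (41.6% to 55.7%).

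The 3 MIA genes were scarce in every protoplast group. IS had 40.5 and 204 CPM in the FACS leaves, 106 to 134 CPM in leaf pair 1 and 32.5 to 73.5 CPM in leaf pair 4, against 0.251, 2.14 and 0.935 CPM in total protoplasts. T3R had 443 and 533 CPM in the FACS leaves, 1568 to 2515 CPM in leaf pair 1 and 558 to 1560 CPM in leaf pair 4, against 18.1, 27.0 and 25.7 CPM in total protoplasts. CrTPT2 had 36.4 and 89.6 CPM in the FACS leaves and 55.1 to 114 CPM in leaf pairs 1 and 4, against 0.920, 2.58 and 2.10 CPM in total protoplasts. For all 3 genes the Illumina leaf and protoplast samples did not overlap.

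The rest of the study's MIA table, without IS, T3R and CrTPT2, was read the same way, keeping only genes that passed the reference filter. A log2 ratio of at least 2 was reached by 3 of 5 iridoid genes (the iridoid oxidase IO, the hydroxylase 7DLH and the secologanin synthase SLS3), 0 of 1 indole gene, 0 of 7 central genes and 2 of 3 late genes. It was reached by 1 of 3 branching genes, 0 of 2 transporters and 1 of 6 transcription factors, and by 18.1% of all genes that passed. The median log2 ratios were 2.15 for iridoid, -0.50 for central, 2.21 for late and 0.30 for transcription factor genes, beside 0.44 over all genes that passed. Over the whole lists, with IS, T3R and the genes that failed the filter, these medians were -0.19, -0.78, 2.86 and -0.32. In the whole lists, 5 of 10 iridoid, 6 of 10 central, 2 of 8 late and 12 of 18 transcription factor genes were below 0. DAT, with 66.1 CPM in the reference and 3.48 CPM in total protoplasts, stood at rank 168 of the same ranking, outside the 150.

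Of the markers of leaf cell types, the summed levels of IPAP and of idioblast genes were lower in total protoplasts than in most leaf samples. The summed level of the epidermis genes, carried largely by the methyltransferase LAMT, was not. The 5 IPAP genes, IS among them, summed to 138 to 264 CPM in total protoplasts, 258 and 1340 CPM in the FACS leaves and 338 to 987 CPM in leaf pairs 1 and 4, and 2 of the 4 besides IS had a log2 ratio of at least 2. The oxidoreductase 8HGO went the other way (-0.91, with 66.5 CPM in the reference and 126 CPM in total protoplasts). The glucosyltransferase 7DLGT stood at 0.53. The 8 epidermis genes summed to 1579 to 2065 CPM in total protoplasts, 872 and 2870 CPM in the FACS leaves and 164 to 2673 CPM in leaf pairs 1 and 4. Against the lowest leaf group, 5 of 8 had a log2 ratio below 0. Against the FACS leaf means, LAMT (821 CPM, and 1143 CPM in total protoplasts) and SLS4 (89.4 and 361 CPM) were higher in total protoplasts. The others were lower there: SLS1 (237 and 218 CPM), SLS2 (269 and 62.8), SLS3 (193 and 22.1), the decarboxylase TDC (99.6 and 8.43), the synthase STR (150 and 76.0) and the glucosidase SGD (11.6 and 6.16). D4H and DAT summed to 85.3 to 130 CPM in total protoplasts, 969 and 1050 CPM in the FACS leaves and 509 to 1193 CPM in leaf pairs 1 and 4, and both had a log2 ratio of at least 2. None of these marker genes had a mean of 0 CPM in total protoplasts, and their part in the levels of the 150 transcripts was not tested.

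**Figure D3:**
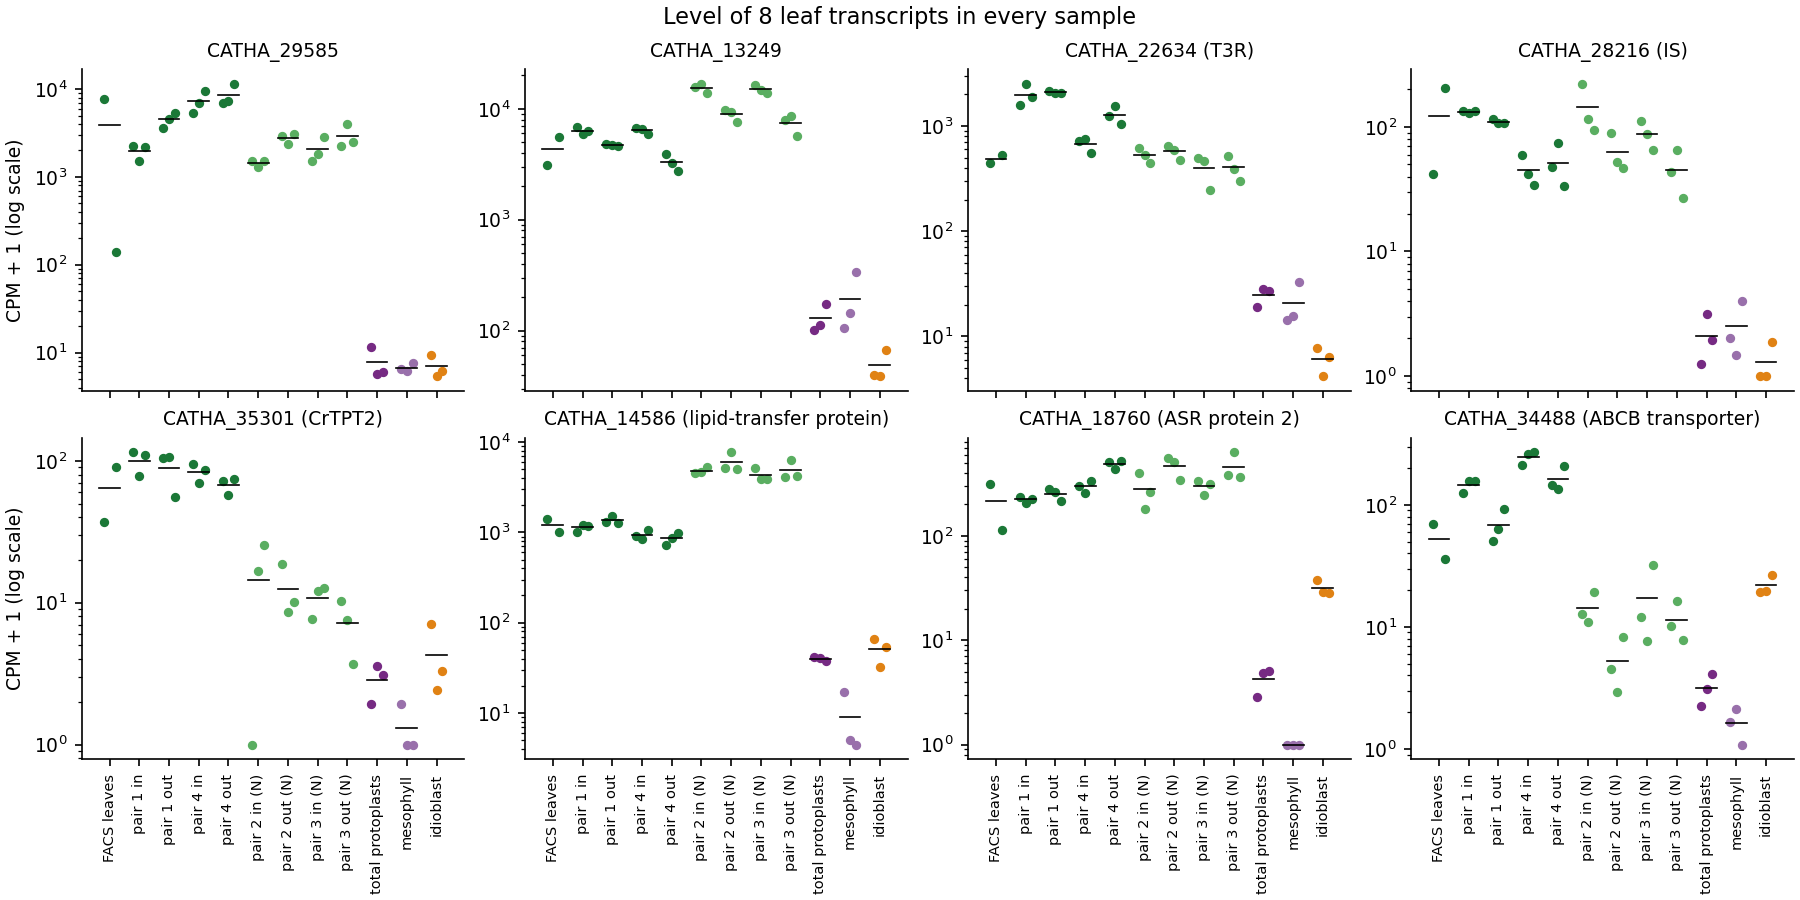
Level of 8 of the transcripts in every sample (CPM + 1, log axis, 1 point per sample, line at the group mean; N marks Nanopore leaves). Leaves (green) lie above total protoplasts and mesophyll (purple) in most panels; idioblasts (orange) reach 27.5 to 37.0 CPM for CATHA_18760 and 18.4 to 25.5 CPM for CATHA_34488, where mesophyll has at most 1.10 CPM.

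The sorted populations held as little of these transcripts as the unsorted protoplasts did. Mesophyll means had a median of 2.58% of the leaf reference and idioblast means one of 2.48%, beside 2.64% in total protoplasts and 71.4%, 68.8% and 73.1% over all genes that passed the filter. All 150 genes were at or below 25% of the reference in mesophyll, where 19% of all genes that passed were, and 148 of 150 in idioblasts, where 24.8% were. Both sorted populations are part of the total protoplasts that the choice used, and both are set against its leaf reference. Neither count is thus a separate result.

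The highest remainders were larger in idioblasts than in mesophyll. The choice favoured this order, because low total protoplast levels limit the common mesophyll cells more than the scattered idioblasts. In idioblasts, CATHA_34488 kept 40.3% of its reference, CATHA_9826 27.8%, CATHA_28266 14.7%, CATHA_18760 14.5% and CATHA_38316 13.6%. In mesophyll, the largest shares were 9.10% for CATHA_16475, 8.75% for CATHA_26025, 8.74% for CATHA_13194, 8.31% for CATHA_14478 and 8.16% for CATHA_38275.

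Idioblast and mesophyll protoplasts, neither of which entered the choice as a group, were compared by edgeR's quasi-likelihood test. A gene was called at a Benjamini-Hochberg adjusted p of at most 0.05 over the 18339 genes tested and at least 2-fold change. Of the 150 genes, 19 (12.7%) were called higher in idioblasts, where 7.21% of all genes tested were, and 29 (19.3%) were called lower, where 9.12% were. Their calls in either direction stand beside 16.3% of all genes tested. Their median log2 fold change was -0.07, beside -0.02 over all genes tested. All 150 passed the low-count filter through their leaf samples, and 23 had at most 10 counts in each of the 6 compared samples. Because low total protoplast levels keep mesophyll levels low too, these directions are not free of the choice.

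The count of lower genes rested partly on mesophyll replicate 3, which had the highest of the 3 mesophyll values in 23 of the 29 genes, and in 93 of all 150. Without it, 14 of the 29 stayed lower and no other gene joined them (9.33%, beside 7.06% of all genes tested), and 22 were higher (14.7%, beside 7.37%). The samples were paired by replicate number, and with that block over the 9 protoplast samples 126 of the 150 passed the filter. Of these, 16 were higher (12.7%, beside 7.44% of all genes tested) and 17 lower (13.5%, beside 8.22%), all of them among the 19 and 29. The same 9 samples without the block gave 15 higher (11.9%, beside 6.75%) and 13 lower (10.3%, beside 7.37%). Among the genes named below, the calls of IS, CATHA_23144, CATHA_37418, CATHA_38275, CATHA_1045 and CATHA_36520 were lost with the block, and CATHA_20012 and CATHA_21006 did not pass its filter.

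CATHA_18760, the abscisic stress-ripening protein, had the clearest difference. Its levels were 37.0, 28.3 and 27.5 CPM in idioblasts and 0 counts in all 3 mesophyll samples, beside 1.84, 3.90 and 4.05 CPM in total protoplasts and 114 to 527 CPM in the Illumina leaves. Against the floor of 3 counts over the mesophyll group, it was at least 360-fold higher in idioblasts (edgeR adjusted p = 6.1e-11, and 7.2e-07 with the block). No sample of one group overlapped the other.

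CATHA_34488, the ABCB transporter, had 18.4, 18.6 and 25.5 CPM in idioblasts and 0.658, 1.10 and 0.0861 CPM in mesophyll. Total protoplasts had 1.25, 2.08 and 3.12 CPM and the FACS leaves 68.4 and 34.9 CPM, so idioblasts were the protoplasts nearest to the leaf level. Its log2 fold change was 5.02 ± 0.42 (SE; edgeR adjusted p = 4.2e-08), and 5.05 ± 0.49 with the block (SE; edgeR adjusted p = 7.5e-06).

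CrTPT2 had 6.13, 1.41 and 2.32 CPM in idioblasts against 0.940, 0 and 0 CPM in mesophyll. Its log2 fold change was 3.47 ± 0.78 (SE; edgeR adjusted p = 0.0023), and 3.54 ± 0.98 with the block (SE; edgeR adjusted p = 0.016). All mesophyll counts came from replicate 1, without which the value was 8.92, and without idioblast replicate 1 it was 2.65. With only the 6 compared samples the call was lost (edgeR adjusted p = 0.051). The groups did not overlap, although each value was far below the 36.4 CPM of the lowest Illumina leaf sample. The other 2 largest rises were in genes with no description. CATHA_28146 had 1.30 to 1.80 CPM in idioblasts and at most 0.0861 CPM in mesophyll (log2 fold change of 5.37 ± 0.62 SE, edgeR adjusted p = 2.7e-06), and CATHA_25274 had 0.704 to 1.03 CPM against at most 0.158 CPM (3.68 ± 0.80 SE, edgeR adjusted p = 0.0019).

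The descriptions came mostly from the study's lists of genes raised in idioblasts, so that 7 of the 11 described genes called higher and 2 lower says nothing about the 150. The lipid-transfer protein CATHA_14586, of a family that carries lipids towards the cuticle, had 65.5, 31.6 and 52.1 CPM in idioblasts and 16.2, 4.03 and 3.44 CPM in mesophyll, a log2 fold change of 2.68 ± 0.37 (SE; edgeR adjusted p = 2.6e-05). By the block this change was 2.81 ± 0.36 (SE; edgeR adjusted p = 6.6e-05). The protease CATHA_11964 was also called higher (3.05 ± 0.56 SE, edgeR adjusted p = 0.00039), as were the proline-rich protein CATHA_12004 (2.57 ± 0.74 SE, edgeR adjusted p = 0.013) and the carboxypeptidase CATHA_23144 (2.16 ± 0.68 SE, edgeR adjusted p = 0.023). These 3 genes stayed at or below 6.52 CPM in every idioblast sample, and for CATHA_23144 the groups overlapped and the block gave an edgeR adjusted p of 0.11. The beta-amyrin 28-oxidase CATHA_16918 (2.00 ± 0.90 SE, edgeR adjusted p = 0.11) and the transcription factor CATHA_23273 (1.75 ± 0.77 SE, edgeR adjusted p = 0.098) were not called.

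T3R and IS were the described genes called lower in idioblasts. T3R had 6.69, 3.20 and 5.41 CPM in idioblasts and 13.2, 14.6 and 31.8 CPM in mesophyll, without overlap. Its log2 fold change was -2.03 ± 0.34 (SE; edgeR adjusted p = 0.00019), and -1.86 ± 0.32 with the block (SE; edgeR adjusted p = 0.0008). IS had 0, 0 and 0.858 CPM against 1.03, 0.474 and 3.01 CPM, groups that overlapped (log2 fold change of -2.72 ± 0.99 SE, edgeR adjusted p = 0.045, and 0.086 with the block).

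Of the 10 genes with a reference of at least 1000 CPM, 8 were called lower in idioblasts and 0 higher, beside 9.12% and 7.21% of all genes tested. This count rested on mesophyll replicate 3, without which 2 of the 10 were lower, and 5 were without idioblast replicate 1. With the replicate block 6 were lower. CATHA_13249 had 39.2, 38.0 and 66.4 CPM in idioblasts and 105, 143 and 334 CPM in mesophyll. Its log2 fold change was -2.08 ± 0.37 (SE; edgeR adjusted p = 0.00032), and -1.895 ± 0.16 with the block (SE; edgeR adjusted p = 2.7e-06). CATHA_37418 (-1.10 ± 0.30 SE) and CATHA_38275 (-1.05 ± 0.33 SE) were lower by little more than 2-fold, and by the block fell short of it (-0.98 and -0.89). Among the 90 genes under 100 CPM, 13 were lower and 11 higher.

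By fold, the largest non-overlapping falls were those of CATHA_20012, CATHA_21006, CATHA_1045, CATHA_17088 and CATHA_36520, all at or below 2.73 CPM in every compared sample. CATHA_20012 had 1, 0 and 0 counts in idioblasts and 29, 1 and 2 in mesophyll. Its closest samples had 1 count each (0.0567 against 0.0789 CPM), so their order reflected only the library totals. CATHA_21006 had no count in idioblasts and 1, 2 and 2 counts in mesophyll, which allows only at least 2.11-fold lower than mesophyll. Both genes passed the low-count filter only with the leaf samples in the fit. Leaving out single libraries moved the log2 fold change of CATHA_20012 (-5.03) between -7.09 without idioblast replicate 1 and -2.28 without mesophyll replicate 1, that of CATHA_1045 (-3.03) between -7.10 and -2.48 without idioblast replicates 1 and 2, and that of CATHA_36520 (-2.35) between -1.63 and -7.10 without the same replicates. Of the 5, only CATHA_17088 (0.113, 0.448 and 0.343 CPM in idioblasts, 1.60, 1.10 and 2.67 CPM in mesophyll, edgeR adjusted p = 0.00018) kept its call in all 14 alternatives, with -2.63 ± 0.44 (SE).

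**Figure D4:**
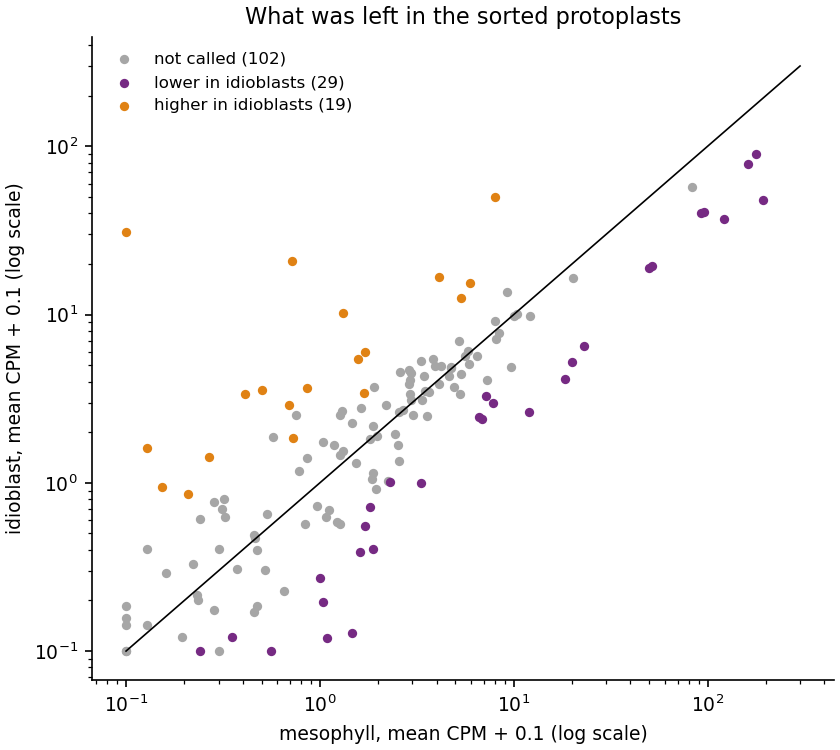
Mean level of the 150 transcripts in mesophyll (x axis) and idioblast protoplasts (y axis), both as CPM + 0.1 on log axes; the line marks equal levels. The 29 genes called lower in idioblasts (purple) include the most abundant ones, and the 19 called higher (orange) include CATHA_18760 at the left edge, with no count in mesophyll.

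For the lists of the MIA table, the same test called 0 iridoid genes higher in idioblasts and 7 of 10 lower. The other counts of higher and lower were 0 and 2 of 2 indole, 1 and 5 of 10 central, 5 and 2 of 8 late, 5 and 0 of 12 branching, 1 and 5 of 7 transporter and 0 and 1 of 17 transcription factor genes tested. Of the markers, 8 of 8 epidermis and 2 of 5 IPAP genes were lower and D4H and DAT were higher. T3R was thus lower in a list where 5 of 8 genes were higher, and CrTPT2 was the 1 transporter called higher. The epidermis genes summed to 135 to 180 CPM in idioblasts and 1712 to 2097 CPM in mesophyll, and the part of such cells in the remainders above was not tested.

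The Nanopore leaves gave a view of the 150 transcripts in leaf samples and reads outside the choice, but not in other plants. Leaf pairs 1 to 4 of a condition were taken from the same plants. All 150 had a count in at least 1 of the 12 samples, and 128 (85.3%) had one in every sample, beside 71.6% of the genes that passed the filter. Mean Nanopore CPM was within 4-fold of the Illumina leaf reference for 113 genes, at or below 25% of it for 29 (19.3%, beside 29.7% of all genes that passed) and at least 4 times it for 8 (5.33%, beside 3.75%). The mean was at least 4 times the total protoplast mean for 142 of the 150 genes, and 13.8% of all genes that passed reached this, the protoplast side of which was used in the choice. Every Nanopore sample lay above every total protoplast sample for 122 genes, beside 18.3% of all genes that passed. Illumina and Nanopore counts were made by different tools, so levels across them are set side by side only.

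Some genes were read very differently. CATHA_2657 had 1369 to 1964 CPM in the Illumina samples of leaf pair 1 and 122 to 706 CPM in pair 4, but 0 to 11.6 CPM in the Nanopore samples of pairs 2 and 3, and was the 1 gene whose Nanopore mean did not exceed its total protoplast mean. The lipid-transfer protein CATHA_14586 went the other way, with 727 to 1508 CPM in the Illumina leaf pairs and 3873 to 7715 CPM in the Nanopore samples. CrTPT2 had only 0 to 24.5 CPM in Nanopore samples and CATHA_34488 1.91 to 31.4 CPM, which for the latter overlapped the idioblast level. These 4 genes were singled out after their values were seen.

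Leaf age and growth condition moved the 150 transcripts within limits that the choice had set in part, so leaf pairs 1 and 4 are described without a test. The ratio of leaf pair 1 to pair 4 was 0.328 to 3.95, at least 2-fold for 15 genes and at most 0.5-fold for 12 (8.0%), beside 5.22% and 3.36% of all genes that passed. Outdoors over indoors ratios had medians of 1.01 in pair 1 and 0.921 in pair 4, beside 0.958 and 1.01 over all genes that passed the filter. In pair 1, 2 genes (1.33%) were at least 2-fold higher outdoors and 8 (5.33%) at least 2-fold lower, beside 2.22% and 0.78% of all genes that passed. In pair 4 the counts were 3 (2.0%) and 14 (9.33%), beside 3.20% and 3.65%.

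In the Nanopore leaves the question whether outdoor growth altered these transcripts could be tested in samples that the choice had not used. The choice still limited what could be found. Its reference was the lowest of group means that included indoor and outdoor leaves of the same plants, so genes with a large fall in either condition were disfavoured. Of the 150 genes, 120 had enough counts, and the other 30 were not tested. In leaf pair 2, 8 of the 120 (6.67%) were higher outdoors and 5 (4.17%) lower, where 6.01% and 4.18% of all 5641 genes tested were. In leaf pair 3, 5 of 120 (4.17%) were higher and 12 of 120 lower, where 6.51% and 6.67% were. The shares in pair 2 were those of the background. Calls in either direction covered 10.2% of all genes tested in pair 2 and 13.2% in pair 3. The 2 comparisons share no sample, but the leaves of a condition came from the same plants.

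**Figure D5:**
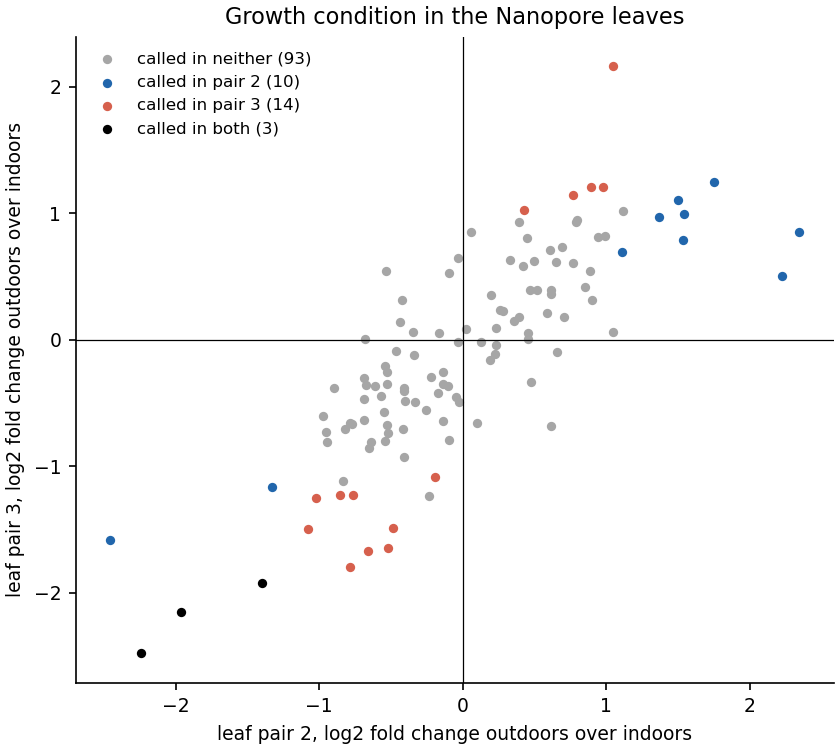
Log2 fold change outdoors over indoors of the 120 tested transcripts in leaf pair 2 (x axis) and leaf pair 3 (y axis), coloured by where they were called. The 3 genes called in both pairs (black) were lower outdoors, and 10 and 14 genes were called in pair 2 or pair 3 alone.

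CATHA_18091, CATHA_28630 and CATHA_6393 were lower outdoors in both pairs, and no gene was higher in both. CATHA_18091 had 814, 602 and 531 CPM in pair 2 indoors against 226, 128 and 98.4 CPM outdoors, and 424, 366 and 212 CPM in pair 3 indoors against 88.4, 39.7 and 60.0 CPM outdoors. Its log2 fold changes were -1.97 ± 0.30 (SE; edgeR adjusted p = 5.7e-05) and -2.15 ± 0.31 (SE; edgeR adjusted p = 1.6e-05). In the Illumina samples it had 466 to 796 CPM indoors and 196 to 317 CPM outdoors in leaf pair 1, and 137 to 206 against 28.4 to 78.2 CPM in pair 4, also without overlap. Those samples came from the same plants and were used in the choice.

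CATHA_28630 had 88.0 to 133 CPM indoors and 10.6 to 31.0 CPM outdoors in pair 2, and 119 to 271 against 9.21 to 46.4 CPM in pair 3 (log2 fold changes of -2.24 ± 0.59 and -2.48 ± 0.52 SE, edgeR adjusted p = 0.025 and 0.0053). Its call in pair 2 was lost when any of 5 of the 6 samples was left out (edgeR adjusted p of 0.058 to 0.11). CATHA_6393 had 59.2 to 81.4 CPM indoors and 17.2 to 29.1 CPM outdoors in pair 2, and 57.4 to 70.7 against at most 17.6 CPM in pair 3 (-1.40 ± 0.35 and -1.92 ± 0.35 SE, edgeR adjusted p = 0.0074 and 0.00025). Indoor and outdoor samples of these genes did not overlap in either pair.

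Among the genes higher outdoors in pair 2, CATHA_16028 rose from 0, 7.89 and 12.2 CPM to 31.8, 41.9 and 54.6 CPM (log2 fold change of 2.34 ± 0.48 SE, edgeR adjusted p = 0.0014). CATHA_15347 rose from 151, 90.7 and 231 CPM to 509, 549 and 971 CPM (2.22 ± 0.47 SE, edgeR adjusted p = 0.0078), CATHA_20786 by 1.75 ± 0.58 (SE), CATHA_5486 by 1.54 ± 0.32 (SE) and CATHA_2724 by 1.53 ± 0.33 (SE) on the log2 scale. CATHA_29585, the gene at the top of the ranking, was also higher, with 1500, 1279 and 1503 CPM indoors and 2884, 2347 and 3074 CPM outdoors (1.11 ± 0.26 SE, edgeR adjusted p = 0.0043). In pair 3 its fold change was 0.69 ± 0.25 (SE), which was not called (edgeR adjusted p = 0.059). CATHA_12441 and CATHA_7697 were the other genes lower in pair 2, both with at most 21 counts in any of the 6 samples. The calls of CATHA_20786, CATHA_12441 and CATHA_7697 were lost in 5 of 8, 5 of 9 and 7 of 11 alternatives that tested them.

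In leaf pair 3, CATHA_29533 was lower outdoors, from 486, 481 and 481 CPM to 107, 141 and 138 CPM (log2 fold change of -1.67 ± 0.27 SE, edgeR adjusted p = 5.6e-05). The carboxypeptidase CATHA_23144 fell from 44.2, 61.8 and 86.4 CPM to 31.3, 11 and 6.82 CPM (-1.79 ± 0.51 SE, edgeR adjusted p = 0.021). The proline-rich protein CATHA_12004 fell from 303, 278 and 355 CPM to 113, 156 and 83.2 CPM (-1.23 ± 0.27 SE, edgeR adjusted p = 0.0017). The largest rise was that of CATHA_20012, from 8.83, 15.5 and 39.3 CPM to 158, 46.3 and 51.8 CPM (2.16 ± 0.48 SE, edgeR adjusted p = 0.0039), followed by CATHA_25292 (1.20 ± 0.31 SE), CATHA_8467 (1.14 ± 0.25 SE) and CATHA_32054 (1.03 ± 0.36 SE, edgeR adjusted p = 0.046). The calls of CATHA_32054 and CATHA_23144 were lost in 7 and 4 of 11 alternatives. T3R and the lipid-transfer protein were not called in either pair, and IS had log2 fold changes of -0.95 ± 0.32 (SE) and -0.81 ± 0.31 (SE), both short of 2-fold. CrTPT2 and CATHA_34488 had too few counts to be tested.

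The test of the difference between the leaf pairs called 0 of the 120 genes, and 0 of all 5641. DESeq2 also called 0 of the 150 it tested. By an unadjusted edgeR p under 0.05, 6 of the 120 genes and 238 of the 5641 differed. With the replicate number as a block within each condition, an alternative chosen after seeing the data because leaf pairs 2 and 3 came from the same plants, 1 gene was called, CATHA_15347 (log2 difference of -1.79 ± 0.28 SE, edgeR adjusted p = 0.00066), and 0.16% of all genes tested were. Samples of equal number in the 2 leaf pairs deviated together from their group means, with correlations of 0.0636, 0.137 and 0.19 indoors and 0.263, 0.172 and 0.426 outdoors. By the test without a block, no gene called in only 1 leaf pair is shown to differ between the pairs, CATHA_15347 included.

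Counts of calls in these small groups moved with single samples. In pair 2 the number called lower went from 5 to 3 without indoor replicate 1, to 1 without indoor replicate 2 and to 2 without outdoor replicate 2, of which 2, 1 and 2 were among the 5. In pair 3 the number called higher went from 5 to 3 without indoor replicate 1, to 3 without indoor replicate 2, to 13 without indoor replicate 3 and to 8 without outdoor replicate 2, of which 3, 3, 4 and 3 were among the 5. Their shares were 2.34%, 2.38%, 10.5% and 6.25%, beside 3.60%, 4.41%, 6.59% and 5.51% of all genes tested. The number called lower there went from 12 to 7 without indoor replicate 2 (5.56%, beside 3.73%) or outdoor replicate 1 (5.6%, beside 3.86%), all of them among the 12.

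In the lists of the MIA table, no iridoid gene was higher outdoors in pair 2 or 3, and 4 of 9 tested in pair 2 and 6 of 9 in pair 3 were lower. The lower counts in pairs 2 and 3 were 1 and 1 of 1 indole, 2 and 5 of 6 central, 2 and 3 of 7 late, 0 and 0 of 4 branching, 0 and 1 of 3 transporter and 0 and 0 of 4 transcription factor genes, and 1 branching gene was higher in pair 3. Of the markers, 6 of 7 epidermis genes were lower in both pairs, 0 and 2 of 4 IPAP genes were, and 0 and 1 of D4H and DAT were. Their part in the changes of the 150 transcripts was not tested.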

How the data were processed

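The authors deposited raw counts per gene for 23 Illumina samples (Trimmomatic 0.39, HISAT2, featureCounts 2.0.1) and estimated counts for 12 Nanopore samples (minimap2 and Salmon 1.4.0 are named), none of them normalized. No strand option is given, so counts of overlapping or antisense genes, and of close copies that share reads, are uncertain.

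CPM used column totals. Idioblasts and mesophyll were compared in 21 Illumina samples without the FACS leaves, as in the study, and outdoors with indoors in the 12 Nanopore samples (estimated counts rounded), by edgeR 4.0.16 (filterByExpr, TMM, robust glmQLFit) in R 4.3.3. DESeq2 1.42.0, other scalings, filters, sample sets and left-out replicates were tried, and the fits were tested on simulated data. SE is the log2 fold change over the root of F. P-values set a difference against the spread between samples of a group, estimated over all groups in the fit. Figures used matplotlib in Python.

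Idioblast and mesophyll replicates of equal number, paired samples in the study, had correlated deviations from their group means (0.361, 0.163 and 0.289), so the numbers were taken as pairs. The values given are from the fit without the block, as in the study, so their SE and p-values leave the pairing out. The block is given where it changed a call and for several of the genes described singly.

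The 150 genes and all lists (iridoid, indole, central, late, branching, transporters, transcription factors, epidermis, IPAP, idioblasts) were chosen with earlier results of these data known. Named genes are those of the MIA table, the 10 described and the 10 others with the largest ratio, the genes at the limit of the choice, the 5 most abundant, the 5 with the largest remainder in each sorted population and, per test, the 5 largest non-overlapping calls in each direction; exceptions are stated. The table of gene symbols used matched 0 of the 150 IDs.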

Additional observations from a re-analysis of the deposited data

How the results depend on the processing

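The choice of genes depended most on the leaf reference. With the FACS leaves alone as the reference, 80 of the 150 genes were chosen again, against 138 with TMM-scaled CPM, 107 with 5 CPM added, 109 with a reference of at least 50 CPM, and 103 to 139 when a FACS leaf or total protoplast replicate was left out. Median remainders were 3.87% (idioblasts) and 4.16% (mesophyll) of the reference with TMM-scaled CPM, 1.41% and 1.73% with the FACS leaves as the reference, and 2.23% to 2.57% and 2.12% to 2.70% without single replicates, while 148 and 150 genes stayed at or below 25%. Between idioblasts and mesophyll, the 19 higher and 29 lower genes became 10 and 11 with only the 6 compared samples, where 108 passed the filter. These were 9.26% and 10.2% of the 108, beside 6.91% and 7.26% of all genes tested. With the 9 protoplast samples they became 15 and 13, and with the replicate block over these, 17 were lower. Leaving out single replicates gave 15 to 22 higher and 14 to 35 lower. In leaf pair 2, 3 genes were lower by DESeq2 (2.75%, beside 2.77% of all genes tested). Without single replicates, 6 to 9 were higher (4.69% to 7.26%, beside 3.485% to 5.09%) and 1 to 5 lower (0.813% to 3.94%, beside 1.72% to 3.67%). In leaf pair 3, 8 were higher with RLE scaling (6.67%, beside 7.34% of all genes tested). Without single replicates, 3 to 13 were higher (2.34% to 10.5%, beside 3.60% to 6.59%) and 7 to 11 lower (5.56% to 8.87%, beside 3.73% to 7.03%). Equal replicate numbers in the Nanopore leaves do not pair outdoor with indoor samples (correlations of -0.0289 to 0.104). With a block on these numbers over the 12 samples, 8 genes were higher in pair 3 (6.67%, beside 7.52% of all genes tested). The test between the pairs then called 1, CATHA_15347, as it did with the block within each condition. Without single replicates that test called 0 genes higher and 0 lower. None of the genes named as the largest non-overlapping calls per test reversed, and the other named genes were not checked for this. The Nanopore samples limit the growth comparisons, since 30 of the 150 genes had too few counts, and 139 genes had a count in each of the 10 samples with at least 400000 counts; 87 reached 20 CPM in every group mean. The cause of these shifts was not tested.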

Other observations

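Among the 150 transcripts, 12 neighbouring pairs had CATHA numbers at most 10 apart, CATHA_18091 and CATHA_18092 being consecutive. How the numbers relate to genome position is not stated in the sources used here. CATHA_18092 had no count in idioblasts and at most 1.29 CPM in mesophyll, while CATHA_18091 kept 2.71% and 1.55% of its leaf reference there.

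FACS leaf replicate 2 was low for several genes that were high in replicate 1 and in the leaf pairs. CATHA_20012 had 313 CPM in replicate 1 and 2.83 CPM in replicate 2, and CATHA_28630 had 471 and 3.12 CPM. In total protoplasts their means were 0.472% and 1.92% of the reference.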
